A study of Mus musculus with 12 samples.

Results

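The receptors described here are the ligand-gated ion channels of fast synaptic transmission, given as 28 subunit genes: 4 of AMPA receptors, 5 of kainate receptors, 7 of NMDA receptors and 12 of GABA-A receptors. They were taken by gene name from the 37306 gene names on the array, and the probe with the highest mean over the 12 arrays stood for each. Cortex and basal forebrain tissue came from 6 mice aged 2 months. The 3 DKO mice carried ChatCre, a floxed gene that can be deleted only where the choline acetyltransferase gene drives Cre, and PS2-/-, so that no intact presenilin 2 allele remains in any cell. The 3 Con mice were Cre-negative with the same floxed alleles and PS2+/-, so that they carried 1 presenilin 2 allele. Con mice therefore differ from DKO mice in Cre, in the conditional deletion and in presenilin 2, and these cannot be told apart. Each mouse gave both tissues.

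AMPA receptors carry most fast excitation in the forebrain, and kainate receptors modulate transmission on both sides of the synapse. NMDA receptors need glutamate together with glycine or D-serine, pass calcium and serve synaptic plasticity. GABA-A receptors are chloride channels that carry fast and tonic inhibition. All are built from several subunits, and the subunit mix, which differs between brain regions, sets kinetics, drug response and where the receptor sits. Basal forebrain holds the cholinergic neurons that innervate cortex, among many GABAergic neurons, whereas most cortical neurons are glutamatergic.

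The gene deleted in every cell was examined first. Psen2, on log2 signal relative to the array's 75th percentile, stood at 0.39, 0.25 and 0.42 in basal forebrain of Con mice 1 to 3 and at -1.86, -1.44 and -1.25 in DKO mice 1 to 3, and the cortex difference was -2.12 ± 0.08 (SE). Within a group the arrays correlated at 0.984 to 0.996, and the scanner called 68.9% or more of an array's probes well above background. The means of 8 cortical excitatory markers ran from 2.21 to 2.31 in cortex and from -1.63 to -0.14 in basal forebrain, and those of 8 cholinergic markers from 0.32 to 0.67 in basal forebrain and from -3.69 to -2.51 in cortex. The basal forebrain samples also had the higher striatal marker means (4.26 to 4.9 against 2.36 to 3.08) and thalamic marker means (0.28 to 0.72 against -1.16 to -0.76), and the cortex samples the higher choroid plexus means (0.76 to 1.97 against -3.91 to -2.55). The means of 9 GABAergic markers overlapped between tissues (3.28 to 3.54 in basal forebrain, 3.43 to 3.58 in cortex). Within that list Gad1, Gad2 and Slc32a1 averaged higher in basal forebrain in both genotypes, and Sst, Pvalb and Vip lower. In Con mice Gad2 averaged 5.08 in basal forebrain against 3.67 in cortex, and Vip -0.25 against 2.29. Slide 1 held every basal forebrain array (6) together with the cortex of DKO mice 1 and 2, and slide 2 held the other 4 cortex arrays. In Con mice, region and slide therefore cannot be told apart. The labels call all mice male, but DKO mice 1 and 3 had Xist signal in both tissues (-2.32 to -1.53) and Ddx3y values of -8.47 or lower, where the other 4 mice had Ddx3y at -1.55 to -1.11. Red cell marker means were higher in DKO than in Con on every array (2.26 to 4.08 against 0.71 to 1.33). The part of these differences in the results below was not tested beyond the values given.

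Of the 28 subunits, 26 were well above background throughout 1 or more groups of 3 arrays and were tested in every comparison. Basal forebrain and cortex differed in 21 of the 26 (80.8%, adjusted p under 0.05, limma, n = 6 mice), and over all 26959 genes tested 60.4% differed. Of the 26, 8 subunits were higher in basal forebrain and 13 lower, where the background was 25.7% higher and 34.7% lower. The split by direction depended on the setting. It was 8 higher and 12 lower with another background correction, and 8 and 8 with quantile normalization. With the mean of a gene's probes it was 11 and 10, and with the slide as a block 8 and 7. Shares by direction over all genes were not counted for these settings. The median difference of the subunits was -0.13, and that of all genes tested -0.07. Under 17 other settings the subunits' median ran from -0.15 to -0.01. In 5 of these it moved by at least the spread of that median among arrays of a group. In Con mice alone 17 subunits passed (8 higher, 9 lower; background 49%, with 18.5% higher and 30.5% lower), and in DKO mice alone 18 (8 higher, 10 lower; background 39.9%, with 19.3% higher and 20.6% lower). In the difference over all mice, 11 of the 21 subunits kept their direction and their call under all 17 other settings of the fit, apart from reading other probes singly: Gabrq, Gabrg1, Gabrg3, Gabra2, Grin3a, Grin3b and Grin2c, higher in basal forebrain, and Grin2a, Gria3, Gabra5 and Gabra4, lower. Without DKO mice 1 and 3, 18 subunits passed (background 43.5%), on slide 1 alone 17 (background 32.4%), and with the slide as a block 15 (background 27.1%). The fit on slide 1 alone set all basal forebrain arrays against the cortex of DKO mice 1 and 2. It held no Con cortex and no genotype term, so that region and genotype are mixed in it. With the slide as a block, the slide term rests on DKO cortex alone, mice 1 and 2 against mouse 3. In bulk tissue, fewer cells of a type and less RNA per cell cannot be told apart.

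The probes of the 3 largest differences, Gabrq, Grin2a and Gria3, are shown because these values rest on what they bind. Each belongs to a RefSeq transcript in the files; the first 30 of 60 bases are given 5′ to 3′, with the mm9 position of the whole probe.
Gabrq, chrX:70085319-70085378, plus strand: gtttctgcgtatctctgaggatgactatgt
Grin2a, chr16:9577803-9577862, minus strand: ggtaaacgttggatgtccaatagcacccta
Gria3, chrX:39031099-39031158, plus strand: gcgcatatttgctctcgtctttagaaaaga

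**Figure D1:**
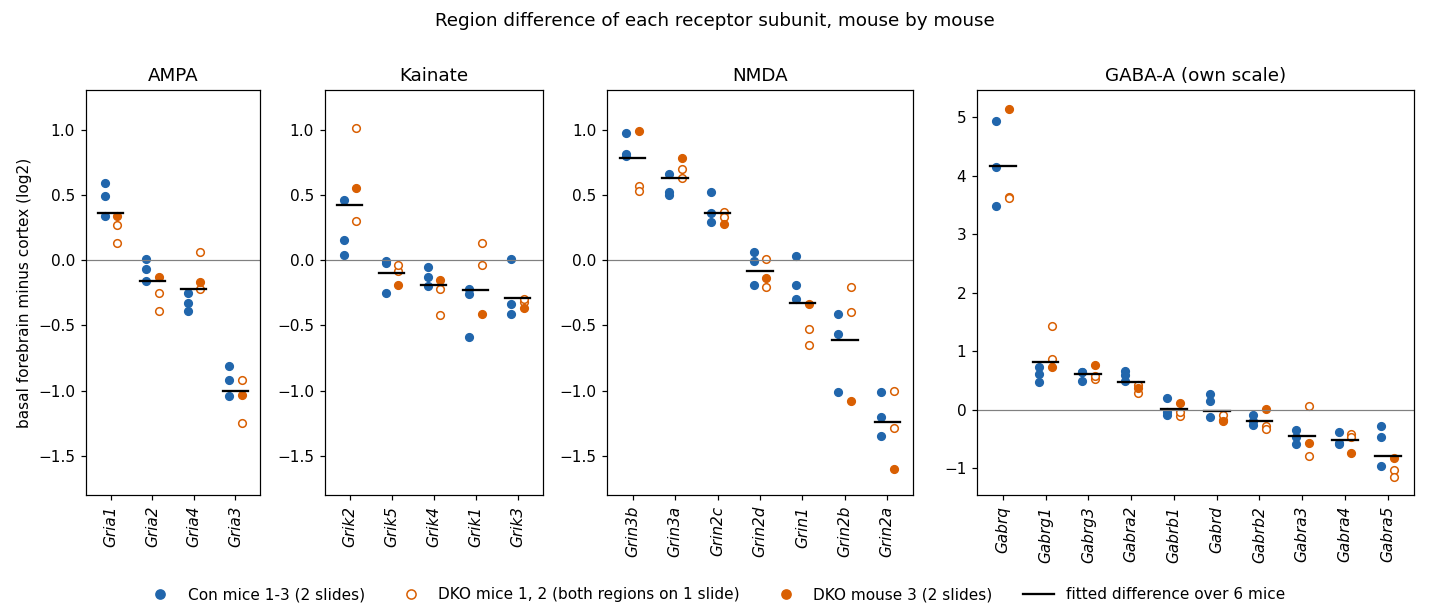
Basal forebrain minus cortex (log2) for each of the 26 tested subunits, mouse by mouse; points are single mice, bars the fitted difference over 6 mice, open points the 2 DKO mice whose tissues shared a slide. Gabrq stands at 3.48 to 5.14 in every mouse on the wider scale of the GABA-A panel, and the other subunits lie between -1.6 and 1.44.

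Among AMPA receptor subunits, all 4 passed, 1 higher in basal forebrain and 3 lower. Gria3, the GluA3 subunit, stood at 1.89, 1.99 and 2.07 in basal forebrain of Con mice 1 to 3 and at 1.6, 1.87 and 1.76 in DKO mice 1 to 3. In cortex it stood at 2.93, 2.91 and 2.89 in Con and at 2.85, 2.79 and 2.8 in DKO. No basal forebrain array reached the lowest cortex array, and the difference was -1 ± 0.05 (SE), 1.99-fold lower (adjusted p = 3.52e-08). Gria1, the GluA1 subunit central to activity-dependent receptor insertion, went the other way. Its basal forebrain levels were 4.77, 4.98 and 5.1 in Con and 5, 4.94 and 4.92 in DKO, against 4.43, 4.49 and 4.51 and 4.73, 4.81 and 4.58 in cortex. It was higher in basal forebrain in 6 of 6 mice, but the highest DKO cortex array lay above the lowest Con basal forebrain array. The difference was 0.36 ± 0.06 (adjusted p = 0.00036). On slide 1 alone, where the only cortex arrays were of DKO mice, it was 0.18 (adjusted p = 0.127).

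Gria2, whose edited form makes AMPA receptors impermeable to calcium, differed by -0.16 ± 0.05 (adjusted p = 0.015) and was lower in basal forebrain in 5 of 6 mice, but the mean over its probes had the opposite sign (0.48, adjusted p = 0.028). Gria4 differed by -0.22 ± 0.06 (adjusted p = 0.0118), also lower in 5 of 6 mice. On slide 1 alone, which held no Con cortex, it differed by 0.01 (adjusted p = 0.961). With quantile normalization neither Gria2 (-0.04, adjusted p = 0.584) nor Gria4 (-0.13, adjusted p = 0.0878) passed.

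Among kainate receptor subunits, 3 of 5 passed, all lower in basal forebrain and none by more than 0.29. Grik3 differed by -0.29 ± 0.06 (adjusted p = 0.00159), and on slide 1 alone by -0.24 (adjusted p = 0.0597). Grik4, a high-affinity subunit that needs a partner, differed by -0.19 ± 0.06 (adjusted p = 0.0139) and was lower in 6 of 6 mice. It no longer passed with quantile normalization (-0.11, adjusted p = 0.155) or with the slide as a block (-0.24, adjusted p = 0.109). The authors' normalized values, which closely followed quantile normalization, gave -0.11 as well (adjusted p = 0.156). Grik5, its relative, differed by -0.1 ± 0.06 and did not pass (adjusted p = 0.169). Grik2 was higher in basal forebrain in 6 of 6 mice, by 0.04 to 1.01, but did not pass (0.42 ± 0.18, adjusted p = 0.0613).

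The call for Grik1 rested on the probe that stood for it. That probe, taken from a cDNA record, gave -0.23 ± 0.09 (adjusted p = 0.0466), and on slide 1 alone 0.06 (adjusted p = 0.672). All 4 other Grik1 probes gave positive values. The 2 probes of its RefSeq transcript whose coordinates span introns gave 0.62 ± 0.12 and 0.83 ± 0.12 (adjusted p over all probes 0.000967 and 0.000106), an Ensembl transcript probe gave 0.78 ± 0.18, and the probe of another RefSeq transcript gave 0.19 ± 0.12, which did not pass (adjusted p = 0.203). Reading each probe separately was chosen after the values were seen. The stretches below are shown because the direction for Grik1 turns on which of them is read. They are the first 30 of the 60 bases of the cDNA probe and then of the 2 probes that span introns, 5′ to 3′ as the scanner files give them, with mm9 positions of the whole probe.
Grik1, chr16:87935520-87935579, minus strand: cactgccccctctctggcctttatatttga
Grik1, chr16:87896544-87914404, minus strand: gagcagtttctctctttcaatcccatcatg
Grik1, chr16:87923523-87936177, minus strand: cagtcagagatggctcgacaatgaccttct

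Among NMDA receptor subunits, 6 of 7 passed, 3 in each direction. The glycine-binding Grin3a and Grin3b and the glutamate-binding Grin2c were higher in basal forebrain, while the glutamate-binding Grin2a and Grin2b were lower, as was the obligatory Grin1 on its brightest probe. Grin2a, the mature forebrain subunit, stood at 0.38, 0.62 and 0.38 in basal forebrain of Con mice and at 0.72, 0.44 and 0.31 in DKO mice. In cortex it stood at 1.58, 1.63 and 1.72 in Con and at 1.72, 1.72 and 1.91 in DKO. The tissues did not overlap, and the difference was -1.24 ± 0.08, 2.36-fold lower (adjusted p = 1.17e-07).

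Grin2b, the subunit of early development that stays high in forebrain, stood at 0.92, 1.36 and 0.93 in Con and 1.5, 1.5 and 1.34 in DKO basal forebrain. Its cortex levels were 1.49, 1.77 and 1.94 in Con and 1.9, 1.71 and 2.41 in DKO. Each mouse had less in basal forebrain than in cortex, by 0.21 to 1.08, although the arrays overlapped. The difference was -0.61 ± 0.13 (adjusted p = 0.00135), and with the slide as a block it was -0.21 and no longer passed (adjusted p = 0.394). Grin1, without which no NMDA receptor forms, differed by -0.33 ± 0.09 (adjusted p = 0.00632) on its brightest probe and was lower in 5 of 6 mice, but the mean over its probes had the opposite sign and did not pass (0.23, adjusted p = 0.16).

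Grin3a, a subunit that lowers calcium permeability, stood at 2.58, 2.59 and 2.56 in Con and 2.84, 2.5 and 2.74 in DKO basal forebrain. In cortex it stood at 1.92, 2.07 and 2.05 and at 2.15, 1.88 and 1.96. The difference was 0.63 ± 0.07 with no overlap, 1.55-fold higher (adjusted p = 9.05e-06). Grin3b, its relative known from motor neurons, stood at -3.2, -3.17 and -3.14 in Con and -3.38, -3.25 and -3.03 in DKO basal forebrain, and at -4.01, -3.97 and -4.11 and -3.96, -3.77 and -4.03 in cortex. Every basal forebrain array was above every cortex array, and the difference was 0.78 ± 0.1 (adjusted p = 6.18e-05). Grin2c, known from cerebellum and astrocytes, stood at 2.8, 2.73 and 2.94 and at 2.77, 2.73 and 2.65 in basal forebrain of Con and DKO, and at 2.43, 2.43 and 2.42 and 2.4, 2.39 and 2.37 in cortex. Its cortex arrays lay within a narrow range below all basal forebrain arrays, and the difference was 0.36 ± 0.05 (adjusted p = 4.4e-05). Grin2d, known from interneurons and the diencephalon, did not differ beyond its error (-0.08 ± 0.06, adjusted p = 0.278).

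**Figure D2:**
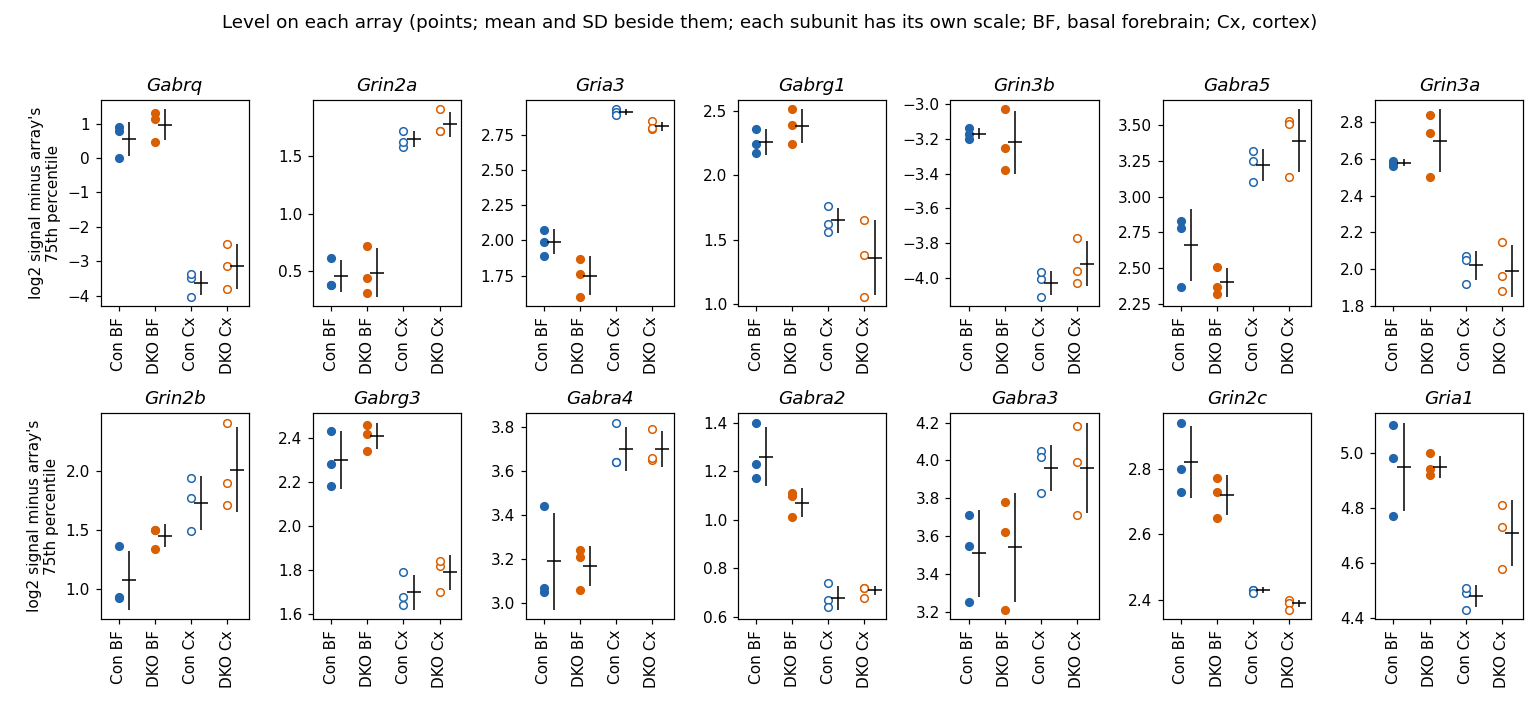
Level of the 14 subunits with the largest region difference among those that passed, on each array (log2 signal minus the array's 75th percentile); points are mice, bars beside them the mean and SD of 3, and each panel has its own scale. Gabrq, Grin2a, Gria3, Gabrg1, Grin3b, Gabra5 and Grin3a show no overlap between tissues, whereas Grin2b, Gabra3 and Gria1 do overlap.

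Of the 12 GABA-A receptor subunits, 10 were tested and 8 passed, 4 higher in basal forebrain and 4 lower. Gabrq, the theta subunit known from hypothalamus and monoaminergic nuclei, had the largest region difference of the 26 tested subunits. It stood at 0.9, -0.01 and 0.78 in Con and at 1.14, 0.47 and 1.31 in DKO basal forebrain. In cortex it stood at -4.03, -3.49 and -3.36 in Con and at -2.5, -3.13 and -3.82 in DKO, still well above background on every array. The difference was 4.16 ± 0.24, 17.8-fold higher (adjusted p = 6.68e-08), 4.18 in Con and 4.13 in DKO. In the 2 DKO mice with both tissues on slide 1 it averaged 3.62. Without DKO mice 1 and 3, which had Xist signal, this X-linked gene differed by 3.89. The mean of 8 markers of septum, preoptic area and hypothalamus was also higher in basal forebrain (-2.14 to 0.24) than in cortex (-3.93 to -3.33). Six6 was not above background on any cortex array, but not every marker followed the mean. Hcrt averaged -3.06 in Con and -3.32 in DKO basal forebrain, against -2.96 and -2.83 in cortex. Avp averaged -1.39 in basal forebrain and -1.4 in cortex of Con, and 1.03 and -1.43 in DKO. The part of these markers in the Gabrq value was not tested.

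The gamma subunits Gabrg1 and Gabrg3, the less common forms of the subunit that brings benzodiazepine sensitivity, were higher in basal forebrain. Gabrg1 stood at 2.36, 2.24 and 2.17 and at 2.51, 2.24 and 2.39 in basal forebrain of Con and DKO, and at 1.62, 1.76 and 1.56 and 1.06, 1.38 and 1.65 in cortex. The tissues did not overlap, and the difference was 0.81 ± 0.09, 1.76-fold higher (adjusted p = 1.47e-05). All 4 other Gabrg1 probes gave higher values in basal forebrain as well, by 1.03 to 2.49. Gabrg3 stood at 2.18, 2.43 and 2.28 and at 2.34, 2.42 and 2.46 in basal forebrain, and at 1.68, 1.79 and 1.64 and 1.82, 1.84 and 1.7 in cortex. Again no array overlapped, and the difference was 0.61 ± 0.06 (adjusted p = 2.65e-06).

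Of the alpha subunits, which set benzodiazepine response and synaptic placement, Gabra2 was higher in basal forebrain and Gabra3, Gabra4 and Gabra5 were lower. Gabra2, the alpha 2 subunit of the axon initial segment, stood at 1.17, 1.23 and 1.4 and at 1.11, 1.01 and 1.1 in basal forebrain of Con and DKO, and at 0.67, 0.64 and 0.74 and 0.68, 0.72 and 0.72 in cortex. The difference was 0.47 ± 0.05 with no overlap (adjusted p = 1.38e-05). A second pair of Gabra2 probes gave 0 ± 0.08 and -0.08 ± 0.06, so that the difference was seen by 2 of 4 probes. The 2 probes that saw it overlap in position and are not separate readings. Gabra5, the subunit of extrasynaptic tonic inhibition in hippocampus and deep cortex, stood at 2.78, 2.37 and 2.83 and at 2.51, 2.37 and 2.32 in basal forebrain, and at 3.25, 3.32 and 3.1 and 3.53, 3.51 and 3.14 in cortex. All basal forebrain arrays were below all cortex arrays, and the difference was -0.78 ± 0.09, 1.71-fold lower (adjusted p = 2.71e-05).

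Gabra4, which pairs with the delta subunit in tonic inhibition of the forebrain, stood at 3.07, 3.44 and 3.05 and at 3.24, 3.21 and 3.06 in basal forebrain of Con and DKO, and at 3.64, 3.82 and 3.64 and 3.65, 3.66 and 3.79 in cortex. The difference was -0.52 ± 0.07 with no overlap (adjusted p = 8.6e-05). Gabra3, known from monoaminergic and reticular thalamic neurons, stood at 3.71, 3.25 and 3.55 and at 3.78, 3.21 and 3.62 in basal forebrain, and at 4.05, 3.83 and 4.02 and 3.71, 3.99 and 4.18 in cortex. It was lower in basal forebrain in 5 of 6 mice, DKO mouse 1 being the exception at 0.07, and the difference was -0.44 ± 0.11 (adjusted p = 0.00556). On slide 1 alone Gabra3 differed by -0.33 and did not pass (adjusted p = 0.148). Gabrb2, a beta subunit of the most common receptor, differed by -0.19 ± 0.05 (adjusted p = 0.00784), but by -0.05 with quantile normalization (adjusted p = 0.392). Gabrb1 (0.01 ± 0.07) and Gabrd, the delta subunit (-0.02 ± 0.07), did not pass, and their 95% intervals were -0.15 to 0.16 and -0.17 to 0.13.

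The remaining 2 GABA-A subunits were at the limit of detection. Gabra6, the alpha 6 subunit of cerebellar granule cells, was well above background on 5 of 12 arrays, at most 2 of 3 in a group (DKO cortex), and ranged from -9.14 to -4.76. Of the 6 cerebellar markers, Cbln3 was not above background on any array and the other 5 were well above it on every array. The mean of the 6 was highest in the cortex of Con mouse 3 (-2.24) and DKO mouse 3 (-2.06), against -3.19 to -2.88 in the other cortex arrays. In the same 2 arrays Pcp2 stood at -0.14 and 0.67, against -2.41 to -1.93 in the other 4, and Gabra6 at -4.82 and -4.95. The highest Gabra6 value, -4.76, was in the cortex of DKO mouse 2, whose marker mean was the lowest in cortex (-3.19). The part of these markers in the Gabra6 values was not tested. Gabre, the epsilon subunit, was well above background on 2 of 3 Con and 1 of 3 DKO basal forebrain arrays and on 0 of 6 cortex arrays. Its values were -6.43, -7.44 and -6 and -6.41, -6.9 and -5.91 in basal forebrain of Con and DKO, and in cortex it was not well above background.

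Some subunit genes that lie close together differed in opposite directions and others did not. On the X chromosome Gabrq was higher in basal forebrain and its neighbour Gabra3 lower. On chromosome 5 Gabrg1 and Gabra2 were higher, Gabra4 lower and Gabrb1 did not pass. On chromosome 7 Gabrg3 was higher and Gabra5 lower. The upstream sequences of both opposed pairs on chromosomes X and 7 are shown because the pairs share a locus but not a direction. They are the 250 bases before the annotated start, 5′ to 3′ on the gene's strand, from RefSeq on GRCm38.p6, where 21 of the 28 subunits had an entry. Capitals mark GGGCGG, the GC box, and TATAAA, the TATA box, searched on both strands, so that their complements CCGCCC and TTTATA are marked too. Where Gabra3 had 2 starts the outer is shown.
Gabrq, chrX:72824928-72825177, plus strand: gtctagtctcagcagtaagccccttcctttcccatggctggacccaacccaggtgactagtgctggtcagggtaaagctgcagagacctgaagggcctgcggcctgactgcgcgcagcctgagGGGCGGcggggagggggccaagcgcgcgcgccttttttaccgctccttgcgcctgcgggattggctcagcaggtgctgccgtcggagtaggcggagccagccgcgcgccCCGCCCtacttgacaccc
Gabra3, chrX:72656920-72657169, minus strand: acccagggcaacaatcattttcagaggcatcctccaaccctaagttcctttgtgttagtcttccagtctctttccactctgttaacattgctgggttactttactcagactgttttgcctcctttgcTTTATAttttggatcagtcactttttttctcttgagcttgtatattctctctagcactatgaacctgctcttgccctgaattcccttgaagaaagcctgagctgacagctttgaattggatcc
Gabrg3, chr7:57387216-57387465, minus strand: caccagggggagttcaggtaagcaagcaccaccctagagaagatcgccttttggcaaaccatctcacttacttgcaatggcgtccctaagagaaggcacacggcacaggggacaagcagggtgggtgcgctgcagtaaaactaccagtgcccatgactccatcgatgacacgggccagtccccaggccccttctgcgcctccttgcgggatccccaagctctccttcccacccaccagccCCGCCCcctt
Gabra5, chr7:57510060-57510309, minus strand: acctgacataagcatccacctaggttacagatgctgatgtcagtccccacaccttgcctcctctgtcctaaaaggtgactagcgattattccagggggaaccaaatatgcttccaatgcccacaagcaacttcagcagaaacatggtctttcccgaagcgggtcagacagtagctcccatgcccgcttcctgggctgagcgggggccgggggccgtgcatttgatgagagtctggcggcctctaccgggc

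The Gabrq window held 2 GC boxes, 19 CpG and 67.2% G and C, the Gabrg3 window 1 GC box, 9 CpG and 60.4%, and the Gabra5 window no match, 9 CpG and 56.4%. The Gabra3 window held 1 TATA box and 0 CpG at 42.4% G and C. A GC box was present in 32.7% of 32841 promoter windows of this length and a TATA box in 12.4%. The subunits were counted by gene, with a match in any of a gene's windows (25 windows for 21 genes). Of these genes 10 had a GC box and 3 a TATA box, a different unit from the shares of windows. These are matches of letters, not measured sites.

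**Figure D3:**
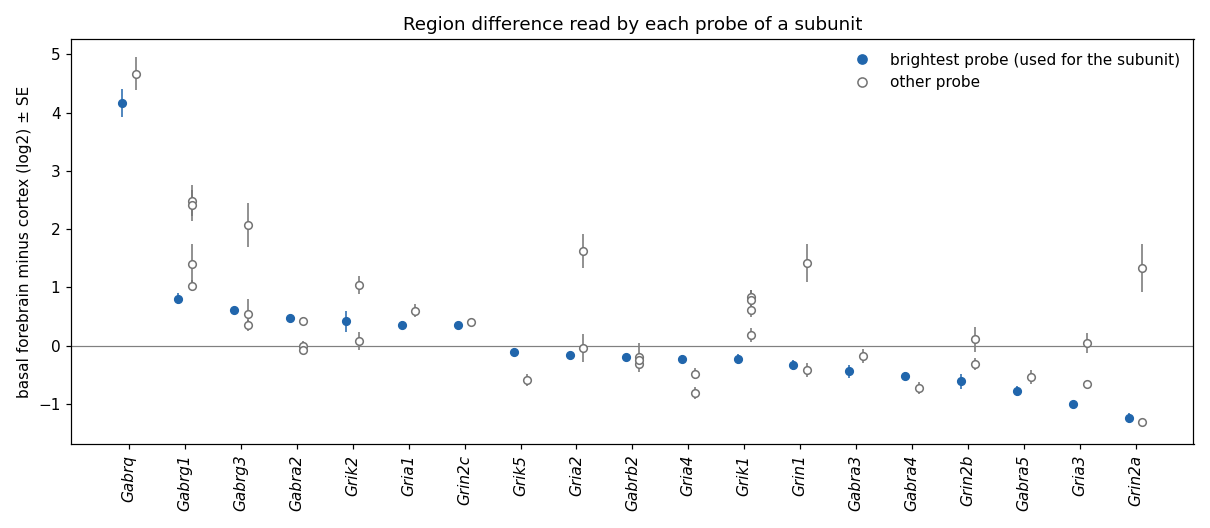
Region difference (basal forebrain minus cortex, log2, ± SE) read by each probe of the 19 tested subunits with more than 1 probe in the test; filled points are the brightest probe, open points the others. Among the subunits that passed, Gabra2, Gria2, Gria3, Grik1, Grin1, Grin2a and Grin2b have an open point on the opposite side of 0 from the filled one.

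Other probes gave the opposite sign for some subunits. The second RefSeq probe of Grin2a gave -1.31 ± 0.06, but an Ensembl transcript probe 1.34 ± 0.41. An Ensembl transcript probe gave 1.63 ± 0.29 for Gria2 and 1.42 ± 0.32 for Grin1, where the second RefSeq probe of Grin1 gave -0.42 ± 0.12. The second Gabrq probe gave 4.67 ± 0.28, and 2 further Gria4 probes gave -0.48 ± 0.09 and -0.81 ± 0.11. Gria3 read -0.66 ± 0.06 on its second RefSeq probe and 0.05 ± 0.17 on an Ensembl transcript probe.

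Partner genes of these receptors were read from lists of AMPA, kainate and NMDA receptor auxiliary genes, of GABA-A receptor anchoring genes, and of metabotropic glutamate and GABA-B receptors. Over all genes tested 60.4% passed between regions, 25.7% higher in basal forebrain and 34.7% lower, and the counts below are set against those shares. Of 22 auxiliary and partner genes tested, 15 passed, 8 higher and 7 lower. Nptx1 (-2.32 ± 0.17) and Nptx2 (-1.17 ± 0.16), secreted pentraxins that cluster AMPA receptors, and Cnih3 (-1.54 ± 0.1), a cornichon that slows them, were lower in basal forebrain. Cacng5, an AMPA receptor regulatory protein, was higher (1.77 ± 0.09). Of 9 metabotropic receptor genes tested, 7 passed, 2 higher and 5 lower, with Grm2 (-1.48 ± 0.13), Gabbr2 (-1.18 ± 0.1) and Grm8 (-0.81 ± 0.14) among those lower. Of 11 GABA-A receptor anchoring genes, 4 passed, 1 higher and 3 lower, among them Plcl2 (-0.39 ± 0.06), Gabarapl1 (-0.14 ± 0.06) and Lhfpl4 (0.22 ± 0.05). None of these 3 lists had a gene that passed in a genotype comparison (limma).

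Between genotypes, 0 of 26 subunits passed in basal forebrain, where all arrays shared slide 1, and 8 of 26102 genes did (0.0306%). At an unadjusted p under 0.05 there were 2 subunits, where the background was 4.39%. Grin2b stood at 0.92, 1.36 and 0.93 in Con and at 1.5, 1.5 and 1.34 in DKO basal forebrain. DKO mouse 3 lay just below the highest Con mouse, and the difference was 0.38 ± 0.13 (95% interval 0.07 to 0.69, adjusted p = 0.973, limma). Gria3 was at 1.6 to 1.87 in DKO and 1.89 to 2.07 in Con, which did not overlap, a difference of -0.24 ± 0.09 (adjusted p = 0.973). Gria3 is X-linked, and with DKO mouse 2 alone, which had no Xist signal, the difference was -0.11. The next by p were Gabra2 (-0.19 ± 0.08, no overlap), Gabra5 (-0.26 ± 0.13, overlapping) and Grin2d (0.16 ± 0.09, no overlap). Gabrq, at 0.42 ± 0.3, had an interval of -0.29 to 1.12, so that with 3 mice a group the interval held both 0 and a change of 1.12.

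**Figure D4:**
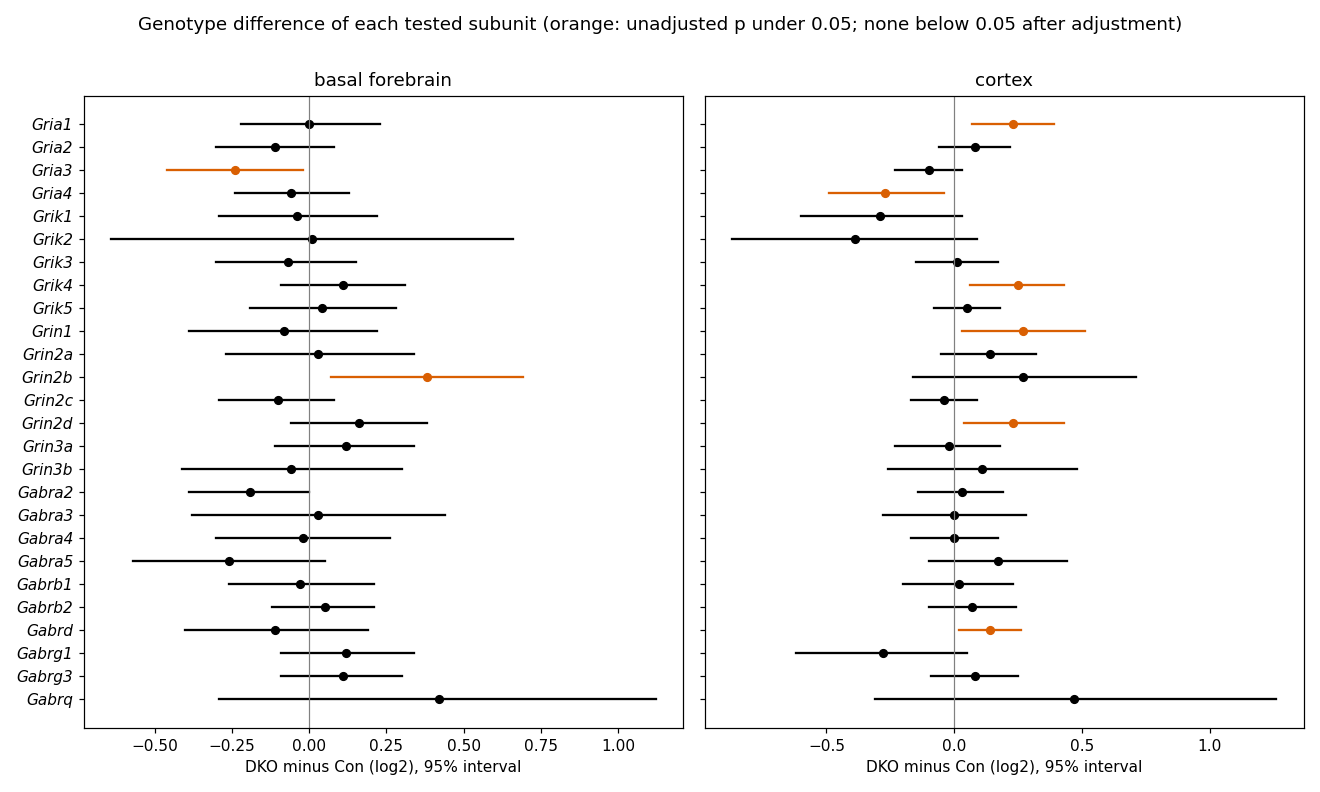
DKO minus Con (log2) with its 95% interval for the 26 tested subunits in basal forebrain and in cortex, 3 mice per genotype. Intervals in orange leave out 0 at an unadjusted p under 0.05 (2 in basal forebrain, 6 in cortex), and none passed after adjustment.

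In cortex 0 of 26 subunits passed, and 3 of 25798 genes did (0.0116%). At an unadjusted p under 0.05 there were 6 subunits (23.1%), where the background was 18.9%. Gria1 stood at 4.43, 4.49 and 4.51 in Con and at 4.73, 4.81 and 4.58 in DKO, a difference of 0.23 ± 0.07 with no overlap (adjusted p = 0.261). Grik4 stood at 1.96, 2.05 and 1.95 in Con and at 2.14, 2.38 and 2.19 in DKO (0.25 ± 0.08). Both were higher in every DKO mouse than in any Con mouse. Gria4 was lower in every DKO mouse, at 1.57, 1.38 and 1.74 against 1.84, 1.86 and 1.8 (-0.27 ± 0.1). Grin2d stood at 0.37, 0.2 and 0.38 in DKO against 0.12, 0.07 and 0.07 in Con (0.23 ± 0.08), and Gabrd differed by 0.14 ± 0.05, again without overlap. Grin1, at 2.91, 3.04 and 2.68 in DKO and 2.55, 2.54 and 2.72 in Con (0.27 ± 0.1), overlapped. The share of all genes without overlap between genotypes was not counted for either tissue. A lack of overlap between 3 and 3 mice therefore only describes the values.

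The cortex arrays were split between slides. Con mice and DKO mouse 3 were on slide 2, DKO mice 1 and 2 on slide 1. Without DKO mouse 3, where genotype and slide coincide, 10 subunits passed and so did 9752 of 25798 genes (37.8%), and with DKO mouse 2 alone 6 passed (23.1%), where the background was 30.4%. On slide 2 alone, with 1 DKO mouse against 3 Con mice and no test, Gria1 differed by 0.1, Gria4 by -0.09 and Grin1 by 0.07, while Grik4 differed by 0.21 and Grin2d by 0.29. With slide as a block 0 subunits passed, with Grin2d at an adjusted p of 0.626 and Grik4 at 0.787.

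**Figure D5:**
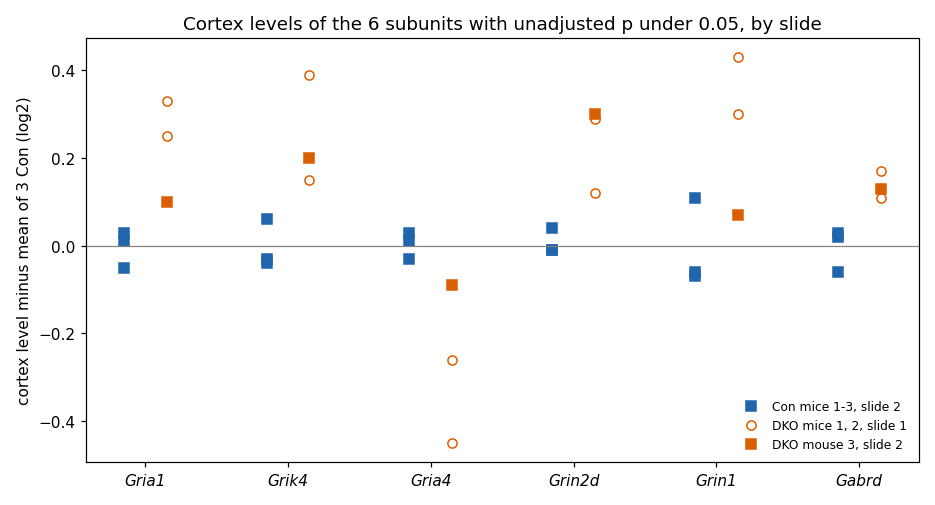
Cortex level minus the mean of 3 Con mice (log2) for the 6 subunits with an unadjusted p under 0.05; squares are slide 2, open circles slide 1, blue Con, orange DKO. DKO mouse 3, which shared its slide with Con, lies nearer to Con than DKO mice 1 and 2 for Gria1, Gria4 and Grin1.

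Averaged over both tissues of a mouse, 0 subunits passed, with 42 of 26959 genes (0.156%). At an unadjusted p under 0.05 there were 5 subunits (background 10.7%), namely Grin2b (0.33 ± 0.11), Gria3 (-0.17 ± 0.06), Grin2d (0.2 ± 0.07), Grik4 (0.18 ± 0.07) and Gabrq (0.45 ± 0.19), with adjusted p from 0.416 to 0.459. Without DKO mice 1 and 3 Gabrq differed by 0.21.

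The interaction, which asks whether the genotype difference differed between tissues, passed for 0 of 26 subunits and 0 of 26959 genes (0%, limma). At an unadjusted p under 0.05 it gave 2 subunits (background 8.36%). Gabra5 was lower in basal forebrain than in cortex by 0.47, 0.95 and 0.27 in Con mice and by 1.02, 1.14 and 0.82 in DKO mice, which overlapped, and the interaction was -0.43 ± 0.19 (adjusted p = 0.562). Gabrg1 was higher in basal forebrain by 0.74, 0.47 and 0.61 in Con and by 1.44, 0.87 and 0.74 in DKO (0.41 ± 0.18). Gabra2 followed at -0.22 ± 0.11. With the slide as a block the interaction was -0.18 for Gabra5 and 0.12 for Gabrg1 (both adjusted p = 1). The cortex arrays behind these values are split by slide as above, and the genotype and region comparisons share their arrays.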

How the data were processed

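RNA of 6 mice, 2 tissues each, was measured on 12 1-colour Agilent mouse arrays. Per the file headers, Feature Extraction 10.7.1.1 (protocol GE1_107_Sep09, build mm9) wrote the deposited processed intensity, background-subtracted and not scaled between arrays. The authors' log2 normalized values were an alternative, and how these were made is not given in the sources here. They gave nearly the same results as quantile normalization (16959 and 16954 genes passing between regions), so that these settings are not separate checks. Another 12 flag columns were not used.

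Of 56605 probes, 37 were dropped because all their spots were outliers on some array. Log2 intensity minus the array's 75th percentile was compared, 1 brightest probe per gene, for genes well above background throughout 1 or more groups of 3 arrays. Tests were limma 3.58.1 (R 4.3.3, lmFit, eBayes with trend), with Benjamini-Hochberg adjustment over all genes tested, calling at 0.05; the fits were tested on simulated data. Region comparisons and the interaction used all 12 arrays in 4 groups. Genotype comparisons used 6 arrays, or each mouse's mean. Replicates are separate mice, whose number limits precision.

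Named were the 14 subunits with the largest region difference among those that passed, up to 5 by p per genotype comparison (every subunit under an unadjusted 0.05 was then added after the values were seen), 3 for the interaction, those not above background, and up to 4 genes of each partner list (some genes are not reported here). Members, lists and tests were chosen with earlier results of these data known. The 28 subunits, 23 auxiliary and partner genes (22 on the array under their symbols), 11 anchoring genes, 10 metabotropic and GABA-B genes and 14 marker lists were used. The alternatives were another background correction, normalization, filter, probe rule and variance model, the slide, each mouse left out, and blocks. The same mouse gave both tissues, which pairs region comparisons; deviations of its arrays from the group means correlated at -0.05 to 0.32 over genes.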

Additional observations from a re-analysis of the deposited data

How the results depend on the processing

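The alternatives left 0 subunits called between genotypes in basal forebrain, over both tissues and in the interaction. In cortex the count was 0 to 10 when a mouse was left out, 10 without DKO mouse 3, and 6 without DKO mice 1 and 3, where 1 DKO array remained and was assumed to vary like the others. The region count in DKO mice fell from 18 to 7 without mice 1 and 3, while the share over all genes fell from 39.9% to 13.7%, and the other region counts stayed within 1.5 times the value given (12 to 18 in Con, where the share over all genes was 25.7% to 52.3%, and 15 to 22 over all mice). With the mouse as a block, region counts were 17 in Con, 19 in DKO and 22 over all mice, and the interaction stayed at 0. With the replicate number as a block the genotype counts stayed at 0 in all 3 comparisons; there the number joins different mice, whose deviations correlated at -0.42 to 0.36.

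In the region difference over all mice, the sign turned in 6 cases: the mean over a gene's probes gave 0.23 for Grin1, 0.44 for Grik1 and 0.48 for Gria2, slide as a block gave 0.06 for Grik1, and slide 1 alone gave 0.06 for Grik1 and 0.01 for Gria4. Single other probes, read after the values were seen, turned it for Gabra2 (-0.08), Gria2 (1.63), Gria3 (0.05), Grik1 (0.19, 0.62, 0.83 and 0.78), Grin1 (1.42), Grin2a (1.34) and Grin2b (0.11); the cause was not tested. Over all settings except the single probes, 996 of 1088 values of named subunits counted as unchanged, 72 lost the call, 11 gained it and 6 turned sign. These counts do not measure robustness, because many values had little room to change. The region difference within a genotype keeps its value when mice of the other genotype are left out. Named subunits of the genotype and interaction comparisons were not called at the start, and 2 of the normalizations nearly coincide. Unchanged meant the same direction and side of the threshold, except for cortex on slide 2 alone, which had no test. There Grik4 and Grin2d counted as unchanged because they moved by less than the SD within groups, and Gria1, Gria4 and Grin1 moved by more. Another scaling moved the median of all genes by under 0.1 in each comparison. Leaving out the filter on dim probes moved it from -0.09 to -0.21 in the Con region difference. Single subunits could move by more than that median. With quantile normalization, the region difference over all mice went from 0.36 to 0.49 for Gria1 and from -0.19 to -0.05 for Gabrb2. Grin3b went the other way, from 0.78 to 0.59, as did Gabrq, from 4.16 to 4.1. The subunits called lower went from 13 to 8.

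Dim signal limits Gabra6 and Gabre, and 3 mice a group limit every genotype interval.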
